A study of Mus musculus with 8 samples.

Results

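The YAP and TEAD pathway was described here through 10 genes chosen by symbol among the 21983 symbols of 1 count table. They were the coactivator genes Yap1 and Wwtr1, the transcription factor gene Tead1, the kinase genes Lats1 and Lats2, the adaptor genes Amotl2 and Ajuba, and the target genes Ankrd1, Ctgf (now named Ccn2) and Cyr61 (now named Ccn1). Transcripts were measured by RNA-seq in the established mouse hepatocyte line AML-12. In 4 libraries the cells overexpressed GM47544 (mouse gene symbol Gm47544, annotated by GENCODE as an antisense RNA), and the titles of these libraries name no vector. The other 4 libraries came from cells labelled wild type with the lentiviral vector pLKO.1, the control. All cells were kept in DMEM with fetal bovine serum and antibiotics, and the labels gave no time of harvest, no clone and no batch.

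In mammals the Hippo pathway is a kinase relay that restrains growth. The kinases MST1 and MST2 (genes Stk4 and Stk3) with the scaffold SAV1 activate LATS1 and LATS2, which act with MOB1 and phosphorylate YAP and TAZ (gene Wwtr1), so that both coactivators stay in the cytoplasm or are degraded. YAP and TAZ that reach the nucleus bind the TEAD factors, which recognise the DNA word GGAATG, and switch on targets such as CCN1, CCN2 and ANKRD1, as well as AMOTL2 and LATS2, which feed back on the pathway. In the liver the pathway is known for limiting organ size and for keeping hepatocytes apart from the biliary fate. Much of this control acts on the proteins, which were not measured here.

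The question was which of these pathway transcripts differed between cells with GM47544 overexpression and pLKO.1 cells. Library totals ran from 11016907 to 17338310 counts in overexpression libraries and from 12256376 to 18965662 in controls. Levels are CPM, counts scaled to library size, and level comparisons between genes use CPM per kilobase of annotated exon. Differences between the groups were tested in edgeR (quasi-likelihood), p-values were adjusted by Benjamini-Hochberg over the 11520 genes tested, and a gene was called at an adjusted p below 0.05. The test called 64.4% of all tested genes, 32.3% higher and 32.1% lower, and 56% had no overlap between the groups. The median over all tested genes was a log2 fold change of 0.000406, and scaling by library totals alone shifted it to 0.128. Control library 3 stood apart from the other controls, at 22.2 on the first principal component against 50 to 60.7, with the overexpression libraries between -50.4 and -43.4. GM47544 itself was not analysed here. The labels do not tell whether the 4 libraries of a group were separate cultures, so the p-values rest on a spread between libraries that may be technical.

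The hepatocyte genes Alb, Ttr and Hnf4a were read in all 8 libraries, Alb at 227 to 292 CPM in overexpression libraries and 17.95 to 27.3 CPM in controls. Ttr and Serpina1a differed the other way, averaging 278 and 31.1 CPM in overexpression libraries and 1320.0 and 100.8 CPM in controls. Apob averaged 244 CPM in overexpression libraries and 145 CPM in controls. The other hepatocyte markers had few reads: Fgb averaged 3.47 CPM in overexpression libraries and 0.460 CPM in controls, and Trf 0.671 and 1.30 CPM. Trf shares 63.5% of its exon length with Gm20425 on the same strand. Cps1 had 35 counts in overexpression libraries and 2 in controls and was not tested. The 8 hepatocyte markers summed to between 1106 and 1151 CPM in overexpression libraries and between 1733 and 2175 CPM in controls. Of 7 tested, 3 were called higher and 3 lower, against 32.3% and 32.1% of all tested genes. Of the 6 cholangiocyte markers, Krt7, Krt19, Sox9 and Spp1 were also abundant in both groups, while Epcam had 0 counts in overexpression libraries and 1 in controls. Cftr had 2 counts in overexpression libraries and 7 in controls, and neither Epcam nor Cftr was tested. The summed cholangiocyte list lay between 4472 and 5073 CPM in overexpression libraries and between 2786 and 4136 CPM in controls. Of 4 tested, 1 was called higher and 2 lower, against 32.3% and 32.1% of all tested genes. Spp1 carried the higher sum, at 2729 CPM in overexpression libraries and 942 CPM in controls, while Krt19 averaged 1701 CPM in overexpression libraries and 2252 CPM in controls. Stellate cell and fibroblast markers summed to between 10.4 and 17.6 CPM in overexpression libraries and between 3.81 and 5.63 CPM in controls (2 of 2 tested genes higher, against 32.3% of all tested genes). Col1a2, Col3a1, Lum and Lrat were listed at 0. Des carried most of this sum, at 11.3 CPM in overexpression libraries and 3.95 CPM in controls. Endothelial markers summed to between 3.22 and 4.24 CPM in overexpression libraries and between 0.437 and 1.34 CPM in controls (2 of 2 tested genes higher, against 32.3% of all tested genes). Cdh5, Vwf, Col1a1 (stellate list) and Fgb (hepatocyte list) had enough counts to be tested only through the overexpression libraries. Trf, also in the hepatocyte list, was tested only through the controls. The counts of called genes in these lists were therefore shaped by the filter on low counts and say little about the lists. The macrophage and blood cell list summed to between 11.2 and 13.9 CPM in overexpression libraries and between 27.1 and 32.6 CPM in controls (1 of 2 tested genes lower, against 32.1% of all tested genes). Adgre1 and Clec4f were listed at 0. Csf1r carried most of the macrophage and blood cell sum, at 10.2 CPM in overexpression libraries and 27.1 CPM in controls. Of its exon length, 15.1% is shared with Hmgxb3 on the other strand. Itgam ran the other way, with 63 counts in overexpression libraries and 10 in controls, and was not tested. It shares 68.7% of its exon length with Gm49368 on the same strand. Ptprc and Cd68 overlapped between the groups. The part of these marker levels in the results below was not tested. In bulk RNA, fewer cells of a type and less RNA per cell cannot be told apart.

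Of the 10 members, 9 passed the filter on low counts and Lats1 did not. Of these 9, 3 were called higher in overexpression libraries (Wwtr1, Tead1 and Yap1) and 5 lower (Cyr61, Ankrd1, Ajuba, Lats2 and Amotl2), against 32.3% and 32.1% of all tested genes, and Ctgf was not called. The groups did not overlap for 7 of the 9, against 56% of all tested genes. The median log2 fold change of the 9 tested members was -0.46, beside 0.000406 over all tested genes, and -0.23 with the GC trend removed. Without control library 3 the counts were also 3 higher and 5 lower, and without control library 2 only 1 was called higher. Removal of a trend of fold change on gene length or on GC content also left 1 called higher, and the second left 3 called lower. Of all tested genes, 3392 were called higher and 3589 lower with the length trend removed. With the GC trend removed these counts were 4125 and 4106, against 3720 and 3697 in the main setting.

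**Figure D1:**
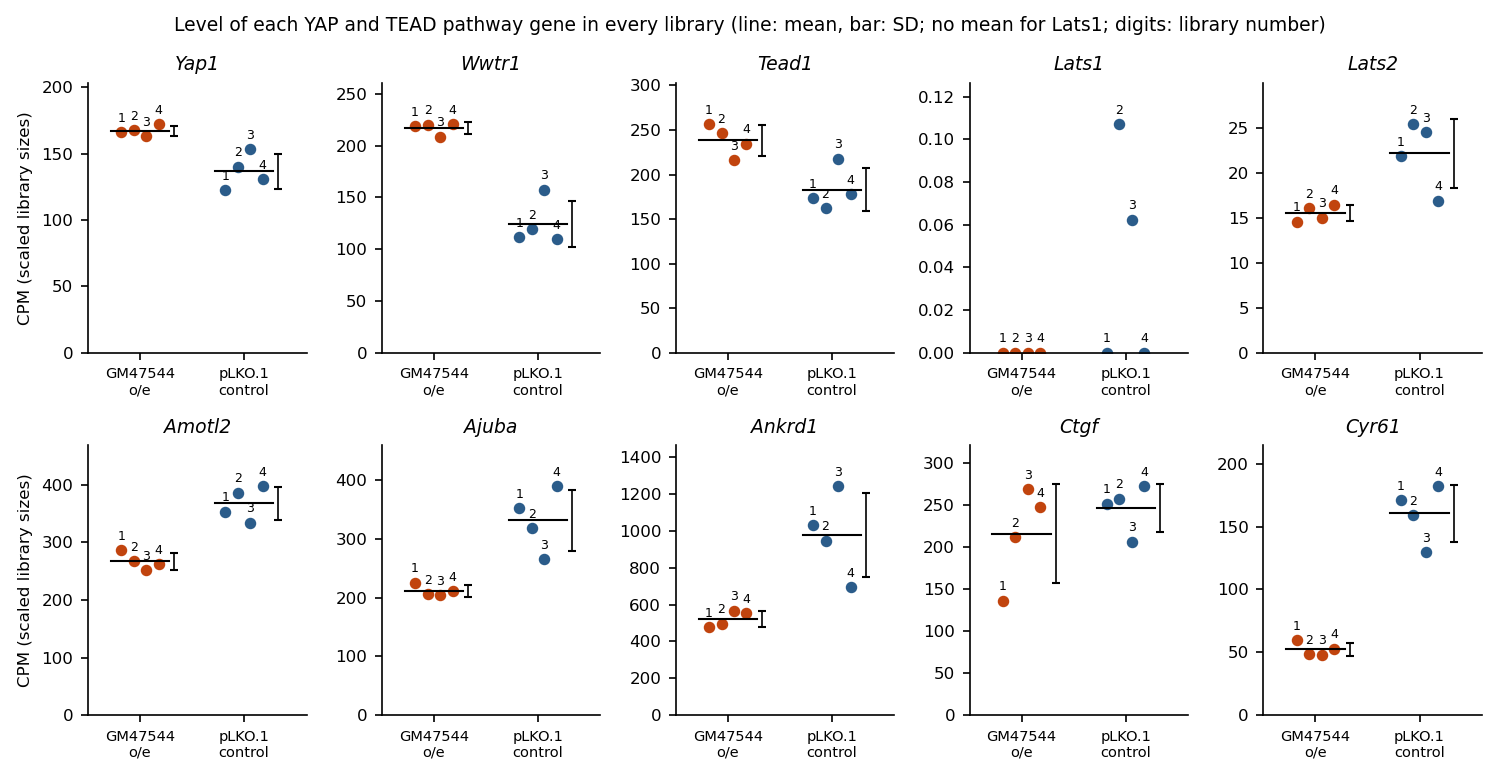
Level of each member in CPM on scaled library sizes (vertical axis, from 0) in the 4 GM47544 overexpression and 4 pLKO.1 control libraries. Points are libraries numbered by replicate, lines are means and bars SD (none drawn for Lats1, with 3 counts in all). The overexpression points lie above the controls for Yap1 and Wwtr1 and below them for Lats2, Amotl2, Ajuba, Ankrd1 and Cyr61, and the groups overlap for Tead1 and Ctgf.

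Transcripts of both coactivators were higher in overexpression libraries, Wwtr1 by more than Yap1. Wwtr1, which encodes TAZ (chr3:57455649-57575910, GRCm38, minus strand), had 218, 220.2, 208 and 221 CPM in overexpression libraries 1 to 4 and 112, 119, 157 and 109.9 CPM in control libraries 1 to 4. All 4 overexpression values lay above all 4 controls, of which library 3 was the highest. Wwtr1 averaged 217 ± 5.74 CPM in overexpression libraries and 125 ± 22.3 CPM in controls (SD, n = 4 each) and the log2 fold change was 0.80 with an SE of 0.13 (edgeR, adjusted p = 0.000149). The call was found in all 18 alternative settings of the scaling, filter, test, trend correction and libraries left out, with log2 fold changes between 0.45 and 0.92.

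Yap1 (chr9:7931999-8004596, GRCm38, minus strand) had 166, 168, 163 and 172 CPM in overexpression libraries 1 to 4 and 122, 140.1, 153 and 131 CPM in control libraries 1 to 4. The groups did not overlap, and control library 3 was the highest control and overexpression library 3 the lowest of its group. In log2 units the difference was 0.29 with an SE of 0.10 (edgeR, adjusted p = 0.0256). This call was lost in 10 of 18 alternatives (adjusted p from 0.00011 to 0.996): after removal of a trend on gene length it was -0.12 and after removal of one on GC content -0.00056, and the call was also lost without any single overexpression library (0.28 to 0.30) and without control library 1 or 2 (0.24 and 0.30).

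The balance between the coactivator transcripts moved toward Wwtr1. Per base of exon, Wwtr1 had 2.54, 2.55, 2.47 and 2.48 times the counts of Yap1 in overexpression libraries 1 to 4 and 1.77, 1.65, 1.99 and 1.63 times in control libraries 1 to 4. All overexpression ratios were above all control ratios, and the mean log2 ratio was higher by 0.52 (two-sided exact permutation test, p = 0.0286, the smallest that 4 against 4 libraries allow, and 0.0286 after adjustment over the 2 ratios tested). Wwtr1 was the more abundant of the 2 per length in each library.

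**Figure D2:**
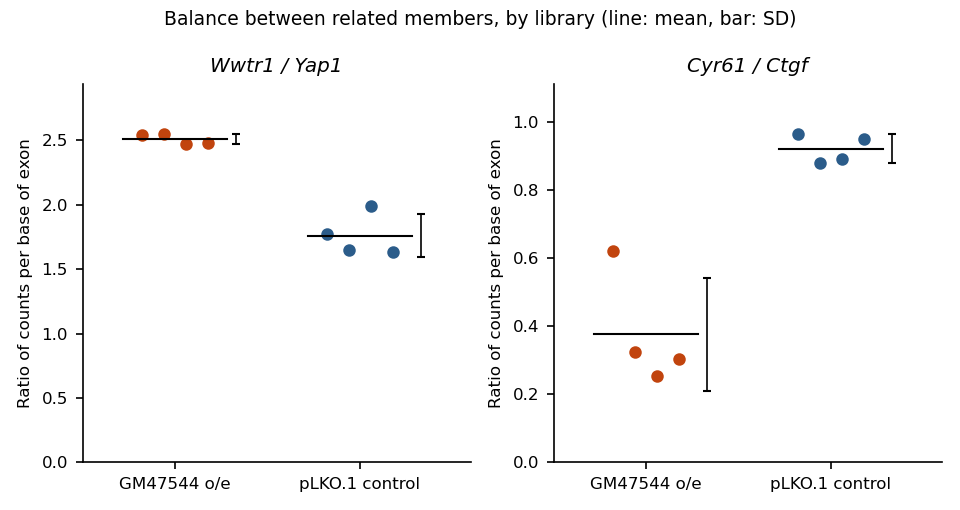
Ratio of counts per base of exon between related members (vertical axis, from 0) in each library, for Wwtr1 over Yap1 (left) and Cyr61 over Ctgf (right). Points are libraries, lines means and bars SD, and the overexpression points lie between 2.47 and 2.55 against 1.63 to 1.99 in controls (left) and between 0.253 and 0.62 against 0.877 to 0.964 (right).

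Tead1, the most abundant TEAD transcript per length in overexpression libraries (chr7:112679318-112906807, GRCm38, plus strand), had 257, 246, 216 and 235 CPM in overexpression libraries 1 to 4 and 173, 162, 218 and 178 CPM in control libraries 1 to 4. Control library 3 lay just above overexpression library 3, so the groups overlapped. In log2 units the difference was 0.38 with an SE of 0.12 (edgeR, adjusted p = 0.0119). Once the length trend was removed it turned to -0.26 and was called lower (edgeR, adjusted p = 0.028, and from 8.16e-06 to 0.0628 over the alternatives), and the call was lost with the GC trend removed (0.17) and without control library 2 (0.33).

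Among the other TEAD genes and the VGLL cofactors, which compete with YAP and TAZ for TEAD binding or act beside them, the transcripts of Tead2 and Vgll3 fell most in overexpression libraries. Of 7 listed, 5 were tested, 0 were called higher and 3 lower, against 32.3% and 32.1% of all tested genes, with a median log2 fold change of -0.29 beside 0.000406. This median was -0.0098 with the GC trend removed and -1.5 with no filter on low counts. Tead2 (chr7:45215753-45233644, GRCm38, plus strand) had 3, 4, 3 and 1 counts in overexpression libraries 1 to 4 and 112, 147, 109 and 142 counts in control libraries 1 to 4. This was 0.203 ± 0.0879 CPM in overexpression libraries and 8.87 ± 1.87 CPM in controls (SD, n = 4 each) and the log2 fold change was -5.40 with an SE of 0.31 (edgeR, adjusted p = 1.13e-07). Vgll3 had 33 counts over the overexpression libraries and 226 over the controls (log2 fold change -2.66 with SE 0.29; edgeR, adjusted p = 9.23e-06). Both calls were found in all 18 alternatives. For Tead2 and Vgll3, only the control group had enough counts by itself to pass the filter on low counts. The list's count of lower genes and its median therefore lean on genes that entered the test through the group where they were higher. Tead4 was lower by a log2 fold change of -0.29 (SE 0.11, edgeR, adjusted p = 0.0302), a call lost in 8 of 18 alternatives (adjusted p from 0.00269 to 0.946), among them without overexpression library 2, 3 or 4 (-0.30, -0.25 and -0.28) and without control library 2 (-0.29). Tead3 and Vgll4 were not called, at log2 fold changes of 0.19 (95% interval -0.12 to 0.49) and -0.14 (-0.38 to 0.11). Vgll1 was listed at 0, and Vgll2 had 0 counts in overexpression libraries and 4 in controls.

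In level per length, Tead1 and Tead4 were the most abundant TEAD genes in both groups. Tead1 was at 17.6 ± 1.28 CPM per kilobase in overexpression libraries and 13.5 ± 1.79 in controls, and Tead4 at 11.2 ± 0.811 in overexpression libraries and 13.7 ± 0.557 in controls (SD, n = 4 each). In controls these levels of Tead1 and Tead4 differed by less than the spread between libraries, while in overexpression libraries the 4 Tead1 values lay above the 4 Tead4 values. Tead1 held 54.9 ± 0.657% of the summed TEAD level in overexpression libraries and 42.2 ± 3.96% in controls (SD, n = 4 each). Tead4 held 35.1 ± 0.372% in overexpression libraries and 43.2 ± 2.36% in controls, Tead2 0.133 ± 0.0589% in overexpression libraries and 5.83 ± 1.23% in controls, and Tead3 9.87 ± 0.677% in overexpression libraries and 8.78 ± 1.08% in controls. These shares carry the same limits as the Tead1 and Tead4 fold changes.

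**Figure D3:**
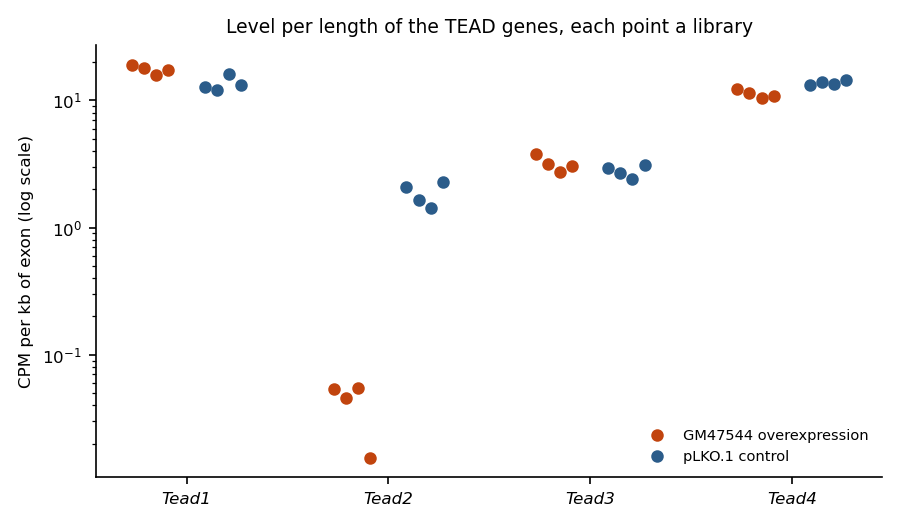
Level per length of the 4 TEAD genes, in CPM per kilobase of exon on a log axis, with GM47544 overexpression libraries left of pLKO.1 controls for each gene and 1 point per library. Tead2 lies more than an order of magnitude lower in the overexpression libraries (mean 0.0425 against 1.85), while Tead1, Tead3 and Tead4 have their 2 groups close together on this axis.

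Of the LATS kinases, only Lats2 was read in appreciable amounts, and it was lower in overexpression libraries. Lats2 (chr14:57689662-57758388, GRCm38, minus strand) had 14.6, 16.1, 15.0 and 16.4 CPM in overexpression libraries 1 to 4 and 21.8, 25.4, 24.5 and 16.9 CPM in control libraries 1 to 4. The highest overexpression value lay just under control library 4, the lowest control. In log2 units the difference was -0.52 with an SE of 0.14 (edgeR, adjusted p = 0.00725), a call lost with the GC trend removed (-0.35, edgeR, adjusted p = 0.0548, with a range over the 18 alternatives from 0.000252). Of the annotated Lats2 exon length, 42.4% is shared with the overlapping gene Gm49361 on the same strand, which had 1 count in all, so the level of Lats2 is uncertain.

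Lats1, the paralog of Lats2 (chr10:7681214-7716460, GRCm38, plus strand), was listed at 0 in all 4 overexpression libraries and had 0, 2, 1 and 0 counts in control libraries 1 to 4. A total of 3 counts over a group corresponds to 0.0548 CPM in overexpression libraries and 0.0508 CPM in controls, so both groups were at or under that floor and no difference was detectable. No other annotated gene shares exon bases with Lats1. Its neighbours on both sides had as few reads: Pcmt1, a protein repair methyltransferase, had 0 counts in overexpression libraries and 1 in controls, while Nup43, a nucleoporin, and Katna1, the catalytic subunit of the microtubule-severing enzyme katanin, were listed at 0 in all 8 libraries. In chromosomal order, Ulbp1, Lrp11, Pcmt1, Nup43, Lats1 and Katna1 were 6 consecutive protein-coding genes with at most 3 counts each over all libraries, in the 556 kb between Cnksr3 (ending at 7212237) and Ginm1 (starting at 7767947). On the far sides of this stretch Cnksr3 had 2813 counts in overexpression libraries and 2417 in controls, and Ginm1 had 648 in overexpression libraries and 676 in controls. For comparison, picked out after the values were seen, 7 other subunit genes of the Nup107 complex, to which NUP43 belongs, had between 1893 and 15371 counts over the 8 libraries.

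**Figure D4:**
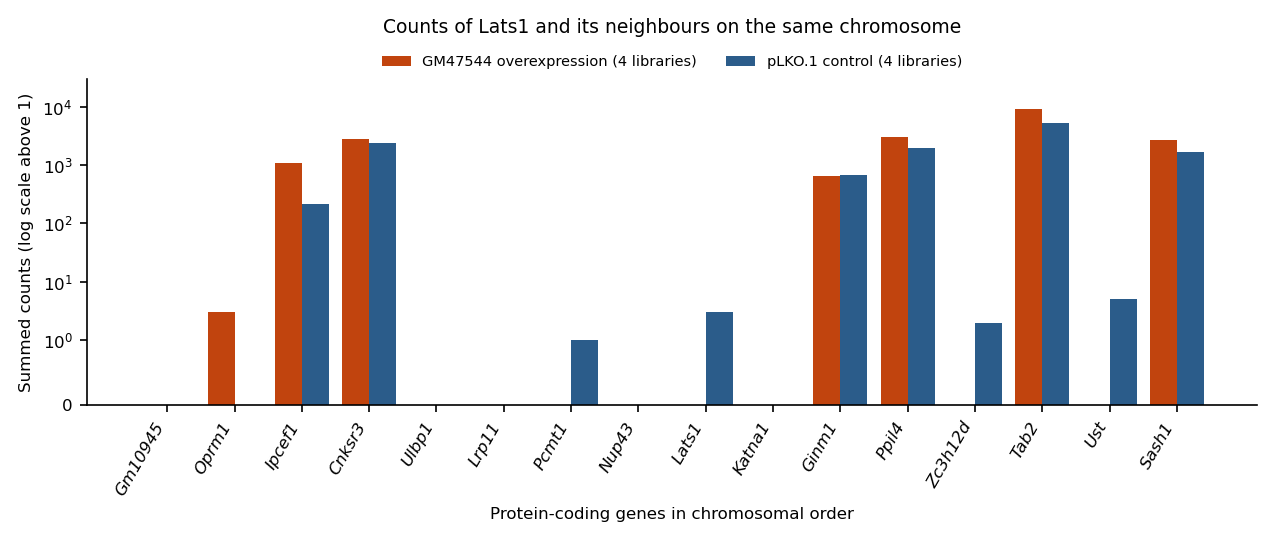
Summed counts of the 4 overexpression and 4 control libraries (vertical axis, log scale above 1) for Lats1 and the protein-coding genes around it in chromosomal order. The 6 genes from Ulbp1 to Katna1 hold at most 3 counts in either group, between Cnksr3 and Ginm1 with 648 or more.

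Among the other Hippo kinases and regulators listed, most called genes were higher in overexpression libraries. Of 23 listed Hippo kinases and regulators, 21 were tested, 11 were called higher and 2 lower, against 32.3% and 32.1% of all tested genes, and their median log2 fold change was 0.33 beside 0.000406. Taok1, a kinase that can activate MST and LATS kinases, had 217, 246, 243 and 256 CPM in overexpression libraries 1 to 4 and 77.8, 82.7, 141 and 84.4 CPM in control libraries 1 to 4. The groups did not overlap, and control library 3 was the highest control (log2 fold change 1.32 with SE 0.17; edgeR, adjusted p = 3.98e-05). Its relative Taok3 rose by 0.65 on the log2 scale, a call lost once the length trend was removed (0.12). Mob1b, a MOB1 coactivator of LATS, averaged 135 ± 5.82 CPM in overexpression libraries and 72.5 ± 19.5 CPM in controls (SD, n = 4 each; log2 fold change 0.90). Amotl1, a relative of Amotl2, and Limd1, a relative of Ajuba, had log2 fold changes of 0.80 and 0.60 (edgeR, adjusted p = 0.000135 and 0.000462). Frmd6, a FERM domain protein of the pathway, was lower, at 39.0 ± 4.92 CPM in overexpression libraries and 59.8 ± 1.72 CPM in controls (SD, n = 4 each; log2 fold change -0.62).

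Of 4 other genes of the core relay, picked out for their role after the values were seen, 2 were called, both higher, against 64.4% of all tested genes called and 32.3% called higher. Stk3 and Sav1 had log2 fold changes of 0.54 and 0.54 (edgeR, adjusted p = 0.0102 and 0.00188), and Sav1 shares 25.4% of its exon length with Atl1 on the other strand. Stk4 and Mob1a had log2 fold changes of 0.33 (95% interval -0.038 to 0.69) and 0.38 (0.016 to 0.75) and were not called after adjustment, both with their highest control value in library 3. Nf2, an upstream tumour suppressor, had a log2 fold change of -0.071 (95% interval -0.29 to 0.15). Once the length trend was removed, the list had 7 higher and 6 lower calls, and its median was 0.12. All tested genes had 3392 higher and 3589 lower calls once it was removed. In that setting the log2 fold changes of Taok1, Amotl1 and Mob1b were 0.76, 0.34 and 0.23, each still called higher. The adjusted p (edgeR) was 7.86e-05, 0.0173 and 0.0484, the last just under the threshold.

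The adaptor genes Amotl2 and Ajuba were both lower, in contrast to the values of their relatives Amotl1 and Limd1. Amotl2, an angiomotin-family protein that binds YAP and holds it outside the nucleus (chr9:102716672-102733418, GRCm38, plus strand), had 286, 268, 252 and 263 CPM in overexpression libraries 1 to 4 and 353, 387, 335 and 398 CPM in control libraries 1 to 4. The groups did not overlap (log2 fold change -0.46 with SE 0.10; edgeR, adjusted p = 0.00172), and the call was lost with the GC trend removed (-0.17, edgeR, adjusted p = 0.0996, with a range over the 18 alternatives from 1.98e-06). Ajuba, a LIM protein that binds and restrains LATS kinases (chr14:54567472-54577558, GRCm38, minus strand), had 226, 206, 204 and 210.5 CPM in overexpression libraries 1 to 4 and 352, 318, 265 and 389 CPM in control libraries 1 to 4. Again no overexpression value reached a control value, and control library 3 was the lowest control. The log2 fold change of Ajuba was -0.65 (SE 0.12, edgeR, adjusted p = 0.000596), between -0.77 and -0.34 over 18 alternatives, each with the call. Wtip, another LIM relative of Ajuba, was the other called gene of the Hippo list that was lower (log2 fold change -0.67).

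The best-known targets did not move as a block: Cyr61 and Ankrd1 were lower in overexpression libraries and Ctgf was not called. Cyr61, a secreted matricellular protein (chr3:145646976-145649981, GRCm38, minus strand), had 59.5, 48.5, 48.1 and 52.8 CPM in overexpression libraries 1 to 4 and 171, 159, 129.6 and 182 CPM in control libraries 1 to 4. Every overexpression value was under every control value by more than the range within either group. Cyr61 averaged 52.2 ± 5.28 CPM in overexpression libraries and 161 ± 22.6 CPM in controls (SD, n = 4 each) and the log2 fold change was -1.62 with an SE of 0.13 (3.07-fold lower, edgeR, adjusted p = 1.1e-06). This was the largest change among the 9 tested members, and the log2 fold change lay between -1.74 and -1.20 over 18 alternatives, each with the call.

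Ankrd1, a nuclear and sarcomeric ankyrin repeat protein (chr19:36111961-36120099, GRCm38, minus strand), had 477, 496, 566 and 554 CPM in overexpression libraries 1 to 4 and 1031, 947, 1242 and 694 CPM in control libraries 1 to 4. Control libraries differed among themselves, from 694 CPM in library 4 to 1242 CPM in library 3, and the groups did not overlap. The log2 fold change was -0.90 (SE 0.16, 1.87-fold lower, edgeR, adjusted p = 0.000284), between -1.04 and -0.67 over 18 alternatives, each with the call. Per length, Ankrd1 was the most abundant member in both groups, at 181 ± 15.0 CPM per kilobase in overexpression libraries and 339 ± 78.5 in controls (SD, n = 4 each).

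Ctgf, the paralog of Cyr61 (chr10:24595442-24598683, GRCm38, plus strand), had 136, 212, 269 and 248 CPM in overexpression libraries 1 to 4 and 252, 257, 206 and 272 CPM in control libraries 1 to 4. Overexpression library 1 was the lowest of the 8 and overexpression library 3 the second highest, so the overexpression values spanned those of the controls apart from the highest. The log2 fold change was -0.19 (95% interval -0.58 to 0.20, edgeR, adjusted p = 0.364), so at this spread changes within these bounds could not be told from none. It was -0.027 without overexpression library 1, -0.32 without overexpression library 3, -0.30 without control library 3 and 0.058 after removal of the length trend, with no call in any of the 18 alternatives. Of its exon length, 23.2% is shared with Gm15270 on the other strand, and it is not known here whether reads were assigned by strand.

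The paralogs Cyr61 and Ctgf were therefore compared within each library. Per base of exon, Cyr61 had 0.62, 0.325, 0.253 and 0.303 times the counts of Ctgf in overexpression libraries 1 to 4 and 0.964, 0.877, 0.891 and 0.948 times in control libraries 1 to 4. Ctgf was the more abundant per base in every library, narrowly in controls and by more in overexpression libraries. The mean log2 ratio was lower by 1.38 in overexpression libraries (two-sided exact permutation test, log2 difference -1.38, p = 0.0286, the smallest that 4 against 4 libraries allow, and 0.0286 after adjustment over the 2 ratios). Without any one control library the exact permutation p was 0.0571, with log2 differences from -1.40 to -1.36.

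Promoter sequence was read from RefSeq (GRCm38.p6), as windows of 300 bases with 250 before and 50 after each annotated start. Of the 10 members, 8 had a window, and Tead1 and Ctgf were not analysed here. The word GGAATG, on either strand, was in the window of 7 of the 8 (all but Lats1), against 14.4% of the 9096 tested genes with a window and 16.6% of all 27025 genes. The word TGANTCA, which AP-1 factors recognise, was in 0 of the 8 on either strand, against 6.44% of the tested genes with a window. Neither count says whether a factor was bound, and the members chosen include well-known TEAD targets. The windows around each GGAATG are shown because the 7 genes hold members that were higher and members that were lower. Each is written on the strand that reads GGAATG, with that word in capitals:
Yap1 (chr9:8004720-8004749, minus strand): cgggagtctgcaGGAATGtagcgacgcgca
Wwtr1 (chr3:57576029-57576058, minus strand): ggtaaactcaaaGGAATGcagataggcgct
Lats2 (chr14:57746102-57746131, minus strand): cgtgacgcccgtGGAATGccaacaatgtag
Amotl2 (chr9:102717727-102717756, minus strand): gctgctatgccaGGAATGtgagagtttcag
Ajuba, first word (chr14:54577830-54577859, plus strand): gaggggcactgtGGAATGtatccatcaacg
Ajuba, second word (chr14:54577808-54577837, plus strand): ttgtttacagttGGAATGcgcggaggggca
Ankrd1, first word (chr19:36120037-36120066, minus strand): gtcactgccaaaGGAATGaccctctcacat
Ankrd1, second word (chr19:36119950-36119979, minus strand): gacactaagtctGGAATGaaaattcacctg
Cyr61 (chr3:145650071-145650100, plus strand): tcaaacatctcaGGAATGttggttggcgcg

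Ankrd1 and Ajuba held the word in a pair, and the other 5 genes once. In Ankrd1 the first bases of the pair lay 210 and 123 bases before the RefSeq start, in Ajuba 186 and 164 bases, in Cyr61 103 bases, in Wwtr1 136 bases, in Yap1 141 bases and in Amotl2 65 bases. The Lats2 word lay after the start, and the second annotated Lats2 start had none in its window. The 250 bases before the start of the 2 most changed members are shown in the direction of transcription, with GGAATG or its complement CATTCC in capitals:
Ankrd1 (chr19:36119845-36120094, minus strand): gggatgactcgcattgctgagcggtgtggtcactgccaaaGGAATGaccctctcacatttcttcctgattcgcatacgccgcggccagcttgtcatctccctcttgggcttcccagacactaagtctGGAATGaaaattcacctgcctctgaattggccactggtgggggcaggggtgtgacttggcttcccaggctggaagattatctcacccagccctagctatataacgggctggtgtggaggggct
Cyr61 (chr3:145649986-145650235, minus strand): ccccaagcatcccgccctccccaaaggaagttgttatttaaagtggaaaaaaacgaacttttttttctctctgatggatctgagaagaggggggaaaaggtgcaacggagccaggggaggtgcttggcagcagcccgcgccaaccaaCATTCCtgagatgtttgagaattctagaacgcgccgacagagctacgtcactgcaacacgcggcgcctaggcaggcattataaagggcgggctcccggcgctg

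A wider list of 20 YAP and TAZ targets, the members left out, held changes both ways. Of 19 tested, 6 were called higher and 3 lower, against 32.3% and 32.1% of all tested genes, and the median log2 fold change was 0.16 beside 0.000406 (0.062 without overexpression library 1). Nt5e, the ecto-enzyme CD73 that makes adenosine, had 23.0, 21.5, 21.96 and 22.4 CPM in overexpression libraries 1 to 4 and 5.04, 7.66, 9.99 and 5.07 CPM in control libraries 1 to 4. The groups did not overlap, and Nt5e was 3.16-fold higher (log2 fold change 1.66 with SE 0.20; edgeR, adjusted p = 1.84e-05). The EGF receptor ligand genes Areg and Ereg rose by 0.77 and 0.79 on the log2 scale, and the kinase gene Nuak2 by 0.50. Areg was at 1.43 once the length trend was removed, and Ereg and Nuak2 were at 0.41 and 0.76 with the GC trend removed, each with the call. Myof, a membrane repair protein, had a log2 fold change of 0.60, which was 0.0070 and not called once the length trend was removed. Birc5, the mitotic protein survivin and also a gene of dividing cells, was lower, at 45.2 ± 0.623 CPM in overexpression libraries and 120.1 ± 18.1 CPM in controls (SD, n = 4 each; log2 fold change -1.41). Once the length trend was removed, the list had 6 lower calls in place of 3 and a median of 0.0070. All tested genes then had 3589 lower calls in place of 3697.

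The CCN relatives of Cyr61 and Ctgf that could be tested were both higher (2 of 2, against 32.3% of all tested genes). Wisp1 (CCN4), a secreted relative known as a Wnt target, had 89.5, 73.2, 61.8 and 71.4 CPM in overexpression libraries 1 to 4 and 34.8, 34.8, 51.3 and 31.6 CPM in control libraries 1 to 4, without overlap (log2 fold change 0.95 with SE 0.16; edgeR, adjusted p = 0.000283). Wisp2 (CCN5) had 116 counts in overexpression libraries and 49 in controls, with overlapping values (log2 fold change 1.31 with SE 0.38; edgeR, adjusted p = 0.00836). Only the overexpression group had enough Wisp2 counts by itself to pass the filter on low counts. The count of 2 of 2 higher therefore says little about the list. Wisp3 had 17 counts in overexpression libraries and 1 in controls and was not tested, and Nov was listed at 0.

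**Figure D5:**
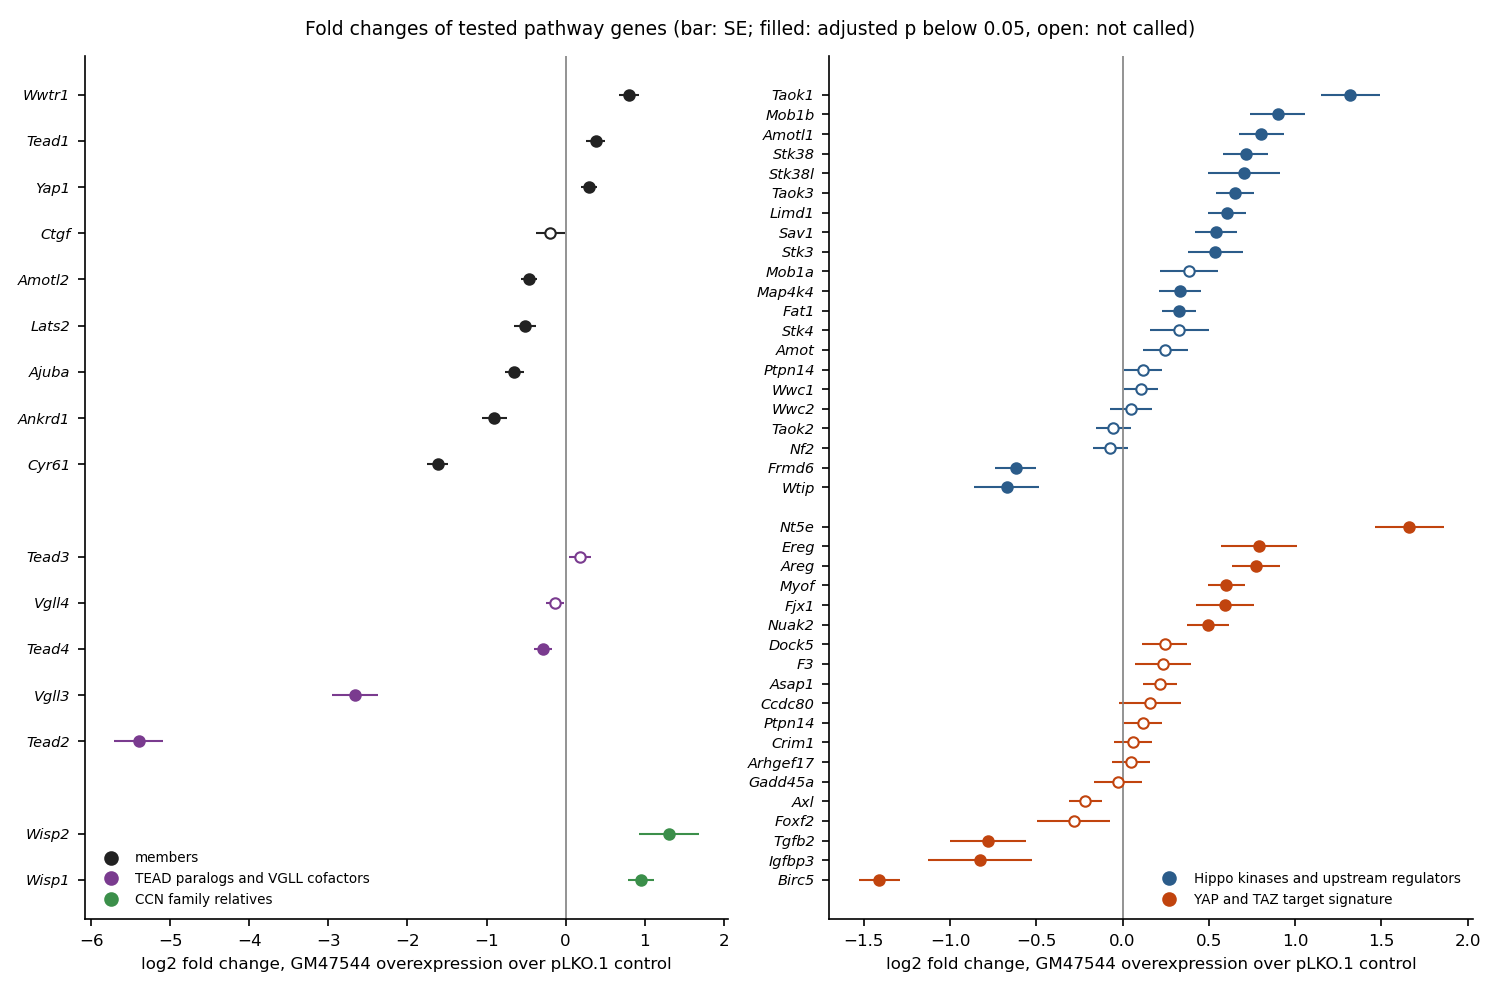
Log2 fold change of each tested gene, GM47544 overexpression over pLKO.1 control (horizontal axis, bars SE), for the members, the other TEAD and VGLL genes and the CCN relatives (left) and for the Hippo and target lists (right, on a narrower axis). Filled points passed an adjusted p below 0.05; of the members Wwtr1, Tead1 and Yap1 lie right of 0 and 5 lie left of it, Cyr61 farthest at -1.62.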

How the data were processed

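RNA was taken with Trizol from AML-12 cells and libraries were made with a NEBNext Ultra kit, per the labels' protocols. The deposited table holds whole-number counts per gene symbol, which the authors did not normalise, for 8 libraries. The submitters' processing notes name FastQC, STAR, HTSeq and the build mm10; no version, annotation or strand setting is given in the sources used here. The vector or transgene sequence was not analysed here.

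Each column was assigned to its library by the labels. Genes were kept with filterByExpr (minimum count 10), scaled by TMM and tested with edgeR 4.0.16 (quasi-likelihood, 2 groups, no covariate, Benjamini-Hochberg, calls at 0.05) in R 4.3.3. The common biological coefficient of variation was 0.15. Intervals of fold changes are 95% intervals. Exon lengths and positions came from GENCODE M21, which matched 21961 of the 21983 symbols (35 through RefSeq synonyms). Ratios between members were tested in scipy 1.17.1 on log2 counts with 0.5 added. A planned Lats2 to Lats1 ratio was not computed because Lats1 had 3 counts in all, so the adjustment ran over 2 ratios in place of 3. The procedure was tested on simulated counts. Floors of 3 counts per group cover counting error only.

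Members and gene lists were chosen with earlier results of these data known. The genes named were all 10 members, up to 6 called genes of each wider list with the smallest p, and any gene changed at least 3-fold; others are said to be picked after their values were seen, or complete a short list. Alternatives were other scalings, no filter or a mean of 1 CPM, DESeq2 1.42.0, limma 3.58.1 (voom with quality weights), a block on the replicate number, removal of trends on gene length or GC content (lowess, span 0.3), and leaving out each library. No 2 libraries of a group agreed within sampling noise: chi-square per gene was between 2.22 and 83.6.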

Additional observations from a re-analysis of the deposited data

Results flagged for a closer look

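Among 52 sets of 4 values (26 named genes in each group), 7 held a library far from the other 3, by a gap of more than 0.829 of the range. Chance gives this in about 1 group in 20 for a single set. The 52 sets share the same 8 libraries, and the genes outside the members were picked for a small p or a large change. The count of 7 can therefore not be set against that rate. In 6 of the 7 that library was control library 3, which also lay nearest to the overexpression libraries on the first principal component. Its values were the highest among controls for Taok1 (140.7 CPM), Taok3 (38.3 CPM), Mob1b (101.7 CPM), Myof (1284 CPM), Ereg (18.7 CPM) and Wisp1 (51.3 CPM), all called higher in overexpression libraries. The seventh was overexpression library 1, the lowest of its group for Limd1 (190.4 CPM). No member was among the 7. Without control library 3 the members had 3 higher and 5 lower calls, the Hippo list had 14 and 2, and the target list 8 and 4. The calls over all tested genes also increased in that setting, to 4498 higher and 4503 lower, from 3720 and 3697 with all libraries.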

How the results depend on the processing

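Of the 26 named genes tested, 19 had the same call in all 18 alternatives. Of the members, only Wwtr1, Ajuba, Ankrd1, Cyr61 and Ctgf (no call) were among them. The named genes outside the members were picked for a small p or a large change in these data, which favours a call that stays. With the length trend removed, 1 member was called higher in place of 3, the Hippo list had 7 higher and 6 lower calls in place of 11 and 2, and the target list had 6 lower in place of 3. All tested genes had 3392 higher and 3589 lower calls in place of 3720 and 3697. In that setting Yap1 turned to -0.12 (edgeR, adjusted p = 0.258) and Tead1 to -0.26 (edgeR, adjusted p = 0.028, called lower). With the trend on GC content removed, 1 member was called higher and 3 lower in place of 5, 1 gene of the TEAD list was higher in place of 0, and Yap1 was at -0.00056. The calls over all tested genes increased there, to 4125 higher and 4106 lower. Why these trends change the calls was not tested.

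Leaving out 1 library gave 1 to 3 members higher (1 without control library 2), 10 to 14 genes of the Hippo list higher, 2 to 4 of the TEAD list lower and 2 to 4 of the target list lower. Over all tested genes it gave 3299 to 4498 higher and 3302 to 4503 lower. It gave log2 differences of 0.48 to 0.58 for the Wwtr1 to Yap1 ratio and of -1.65 to -1.22 for the Cyr61 to Ctgf ratio, the second with an exact permutation p of 0.0571 without any one control library.

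Same-numbered libraries did not deviate together over all tested genes (correlations from -0.119 to 0.0227, against -0.0738 to 0.128 for different numbers). These values cannot show whether same-numbered libraries were prepared together, and the labels do not say. A block on the replicate number gave 2 members higher and 5 lower, and for the ratios the same differences of 0.52 and -1.38 with an exact sign-flip p of 0.125, the smallest that 4 pairs allow. Lats1, Vgll1, Vgll2 and Nov had too few counts to be tested.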
